A study of Arabidopsis thaliana with 6 samples.

Results

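The transcripts described here belong to 7 genes that mark successive states at the tip of the Arabidopsis thaliana root, from the quiescent centre to the dying root cap. They are WOX5 (AT3G11260), BRAVO (AT5G17800), FEZ (AT1G26870), SMB (AT1G79580), BRN1 (AT1G33280), BRN2 (AT4G10350) and BFN1 (AT1G11190). They were chosen by gene ID from what is known of their roles, with earlier results of these data known. All 7 were found among the 21125 genes measured. Libraries came from plants carrying the scl28-3 allele (3 libraries) and from wild-type plants (3 libraries). SCL28 encodes a GRAS family transcription factor, a class of plant regulators. All plants were 6 days old and were grown on plates of Murashige and Skoog medium with sucrose, in continuous light at 21 °C. Each library pooled about 300 root tips of about 2 mm, so a value is a mean over many roots and over every cell type of the tip. The submitters call the libraries of a genotype biological replicates without saying whether the plants were grown separately, so p-values measure the spread between these pools.

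The quiescent centre is a small group of rarely dividing cells that keeps the surrounding stem cells undifferentiated. Below and beside it, root cap stem cells give rise to the columella, which senses gravity, and to the lateral root cap. Cap cells mature, and the oldest of them are shed from the columella or die by a developmental programme, so that production and loss stay in balance. WOX5 is a homeobox factor made in the quiescent centre that maintains the columella stem cells. BRAVO, listed in the annotation as MYB56, is a MYB factor that restrains division of the quiescent centre. FEZ is a NAC factor that promotes the divisions of cap stem cells, and it activates SMB, a NAC factor that in turn represses FEZ and drives maturation. BRN1 and BRN2, listed as NAC015 and NAC070, act with SMB in maturation and in the release of cap cells. BFN1 is a nuclease of dying cells, and SMB is known to be needed for its expression in the lateral root cap.

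None of the 7 genes differed between scl28-3 and wild-type root tips beyond the spread between libraries. The values of the scl28-3 libraries overlapped those of the wild-type libraries for every gene. The genes differed instead in how much they varied from library to library. WOX5, BRAVO and FEZ varied about as much as read counting alone gives, whereas SMB, BRN1, BRN2 and BFN1 varied beyond it. SMB varied no more than FEZ but had a smaller counting error, and the source of its excess over counting was not tested. Spread beyond counting was not particular to these genes, since over all genes no 2 libraries agreed within sampling noise. The genes that act in cap cell release and in cell death were low in the same libraries as BRN1 and BRN2.

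The libraries held between 13996534 and 16780424 reads in scl28-3 and between 10399899 and 11572901 reads in wild type, counted over the listed genes. At these depths 3 reads correspond to between 0.179 and 0.288 CPM (reads scaled to a common library total), so a gene such as WOX5 was read at low precision. The mutation check passed, since SCL28 (AT1G63100) stood at 17.7, 14.9 and 13.7 CPM in the scl28-3 libraries, against 44.5, 42.6 and 42.4 CPM in the wild-type libraries. Its log2 fold change was -1.48 ± 0.12 (SE), with an adjusted p of 0.0022 in limma. Over all 17879 genes tested, 13 were lower in scl28-3 and 0 were higher at an adjusted p under 0.05 in limma, which is 0.0727% of the genes. At an unadjusted p under 0.05 there were 781 genes, or 4.37%, and the quasi-likelihood test of edgeR called 14 genes, or 0.0783%. Wild-type library 1 stood apart from the others on the first principal component, which held 44.3% of the variance, and its endodermis markers were low. Without it the log2 fold changes of the 7 genes ran from -0.26 for SMB to 0.31 for BFN1, and none passed the test (smallest adjusted p 0.582 in limma).

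WOX5 was the least abundant of the 7 transcripts. It had 0.36, 1.13 and 0.77 CPM in the scl28-3 libraries, against 0.60, 0.96 and 0.79 CPM in the wild-type libraries. These values rest on 5, 16 and 13 reads in scl28-3 and on 7, 10 and 9 reads in wild type. The lowest and the highest value both came from scl28-3 libraries, with the wild-type values between them. The exact Poisson 95% interval of the lowest library, 0.117 to 0.84 CPM, overlapped that of the highest, 0.646 to 1.84 CPM, where both cover counting error only. The means were 0.753 ± 0.385 CPM in scl28-3 and 0.783 ± 0.18 CPM in wild type (SD, n = 3 each). The log2 fold change was -0.08 ± 0.29 (SE), with a 95% interval of -0.74 to 0.57 and an adjusted p of 0.998 in limma. These bounds are on a log scale with a constant added to CPM, which understates the fold change of a gene as low as WOX5. With a constant of 0.1 the log2 fold change was -0.16, and with a constant of 2 it was -0.03. The bounds are therefore not limits on the fold change in CPM. The smallest change of WOX5 detectable at this depth was not tested. WOX5 maps to chromosome 3, at chr3:3527280-3528440 on the plus strand (TAIR10.1), with 2 exons spanning 1052 bases.

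BRAVO was measured more precisely. It had 4.79, 4.29 and 3.93 CPM in the scl28-3 libraries, against 4.49, 4.52 and 3.33 CPM in the wild-type libraries. Wild-type library 3 was the low value, and the other libraries lay close together. Its log2 fold change was 0.06 ± 0.17 (SE), with a 95% interval of -0.33 to 0.45 and an adjusted p of 0.998 in limma. The gene lies at chr5:5877113-5879331 on the plus strand (TAIR10.1) and has 3 exons.

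FEZ, the regulator of cap stem cell division, had a fold change and an interval close to those of BRAVO. It had 6.29, 7.39 and 5.6 CPM in the scl28-3 libraries, against 7.17, 5 and 5.97 CPM in the wild-type libraries. Each genotype had a library above 7 CPM, and the groups overlapped over most of their range. The means were 6.43 ± 0.903 CPM in scl28-3 and 6.05 ± 1.09 CPM in wild type (SD, n = 3 each). The difference on the log2 scale was 0.07 ± 0.17 (SE), with a 95% interval of -0.31 to 0.44 and an adjusted p of 0.998 in limma. From library to library FEZ and BRAVO did not move together, with a Pearson r of 0.21 (exact permutation p = 0.726, adjusted 0.877 over 21 pairs of genes). Wild-type library 2 was the lowest for FEZ, as it was for BRN1, whereas BRAVO had 4.52 CPM there. FEZ and BRN1 had an r of 0.67 (exact permutation p = 0.156, adjusted 0.544). FEZ lies at chr1:9312936-9315122 on the plus strand (TAIR10.1).

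**Figure D1:**
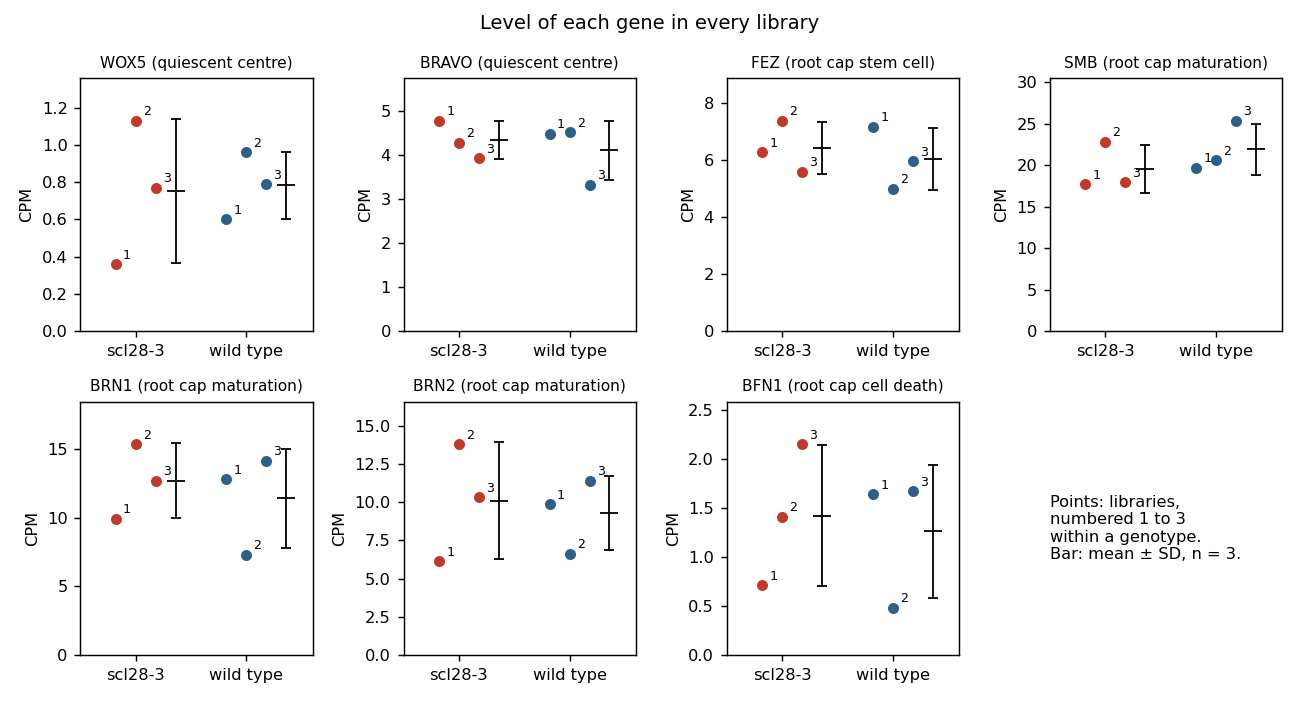
CPM of each of the 7 genes (vertical axis, from 0) in the scl28-3 and the wild-type libraries, with points for libraries 1 to 3 and bars for the mean ± SD of 3 libraries. The genotypes overlap in every panel, and scl28-3 library 1 and wild-type library 2 are the low points for BRN1, BRN2 and BFN1.

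SMB, which starts cap maturation, had the highest CPM of the 7 genes. It stood at 17.7, 22.8 and 17.9 CPM in the scl28-3 libraries, against 19.7, 20.6 and 25.4 CPM in the wild-type libraries. Scl28-3 library 2 exceeded 2 of the 3 wild-type libraries, so the groups overlapped. The means were 19.5 ± 2.87 CPM in scl28-3 and 21.9 ± 3.05 CPM in wild type (SD, n = 3 each). The log2 fold change was -0.18 ± 0.14 (SE), with a 95% interval of -0.49 to 0.12 and an adjusted p of 0.994 in limma. SMB was the only one of the 7 genes whose fold change kept its sign in all 18 alternative analyses, and it passed the threshold in none of them. It lies at chr1:29940803-29943713 on the minus strand (TAIR10.1), where 5 transcripts are annotated.

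BRN1 and BRN2 are close paralogs, and how a read that fits both was counted is not stated in the sources used here. Their coding sequences were identical at 82.3% of the 886 aligned bases, and the longest identical run was 24 bases. SMB was identical to BRN1 at 69.9% of aligned bases. The stretch of the coding sequence around the longest run shared by BRN1 and BRN2 is shown as an example of how alike the genes are. Sequences are from the RefSeq genome, build TAIR10.1, for BRN1 at chr1:12072805-12072894 on the plus strand, BRN2 at chr4:6416673-6416762 on the minus strand and SMB at chr1:29942745-29942834 on the minus strand. They are written 5′ to 3′ on the gene's own strand, and capitals mark bases that differ from BRN1.
BRN1: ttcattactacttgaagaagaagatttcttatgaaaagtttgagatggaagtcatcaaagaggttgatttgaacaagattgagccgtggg
BRN2: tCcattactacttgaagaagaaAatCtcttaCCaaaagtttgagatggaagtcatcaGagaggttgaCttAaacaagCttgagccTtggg
SMB: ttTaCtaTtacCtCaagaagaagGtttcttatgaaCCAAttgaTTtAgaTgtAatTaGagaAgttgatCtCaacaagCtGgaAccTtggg
BRN2 differed from BRN1 at 10 of these 90 bases and SMB at 24 of 90. The read length is not given in the sources used here, so how many reads could fit both genes was not tested.

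BRN1, which acts in maturation and in cap cell release, had 9.93, 15.3 and 12.7 CPM in the scl28-3 libraries, against 12.8, 7.31 and 14.1 CPM in the wild-type libraries. Scl28-3 library 1 and wild-type library 2 were the low libraries, and the groups overlapped. The exact Poisson 95% interval of wild-type library 2, 5.76 to 9.15 CPM, lay below that of scl28-3 library 2, 13.4 to 17.5 CPM. The log2 fold change was 0.16 ± 0.23 (SE), with a 95% interval of -0.36 to 0.68 and an adjusted p of 0.994 in limma. Without wild-type library 1 it was 0.26, and without wild-type library 2 it was -0.11, so its sign rested on that library.

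BRN2 was low in the same pair of libraries. It had 6.14, 13.8 and 10.3 CPM in the scl28-3 libraries, against 9.85, 6.63 and 11.4 CPM in the wild-type libraries. Scl28-3 library 1 was its lowest and wild-type library 2 the next, and scl28-3 library 2 was the highest, as for BRN1. The log2 fold change was 0.06 ± 0.27 (SE), with a 95% interval of -0.55 to 0.67 and an adjusted p of 0.998 in limma. Across the 6 libraries BRN1 and BRN2 had a Pearson r of 0.90 (exact permutation p = 0.0167, 0.35 after Benjamini-Hochberg adjustment over 21 pairs of genes). Spearman's rho was 0.89 (exact permutation p = 0.0333, adjusted 0.525), and r was 0.97 without the 2 libraries farthest from the median of BRN1. None of the 21 pairs passed after adjustment. BRN2 amounted to 53.2%, 77.3% and 69.9% of BRN1 per kb of exon in the scl28-3 libraries, against 66.2%, 78.0% and 69.4% in the wild-type libraries.

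BFN1, the nuclease of dying cells, was scarce and the most variable of the 7 genes. It had 0.71, 1.41 and 2.15 CPM in the scl28-3 libraries, against 1.64, 0.48 and 1.67 CPM in the wild-type libraries. These values rest on 10, 20 and 36 reads in scl28-3 and on 19, 5 and 19 reads in wild type. Scl28-3 library 1 and wild-type library 2 were low once more, and scl28-3 library 3 was the highest. The exact Poisson 95% interval of scl28-3 library 3, 1.51 to 2.98 CPM, lay above that of wild-type library 2, 0.156 to 1.12 CPM. On the log2 scale the difference was 0.13 ± 0.37 (SE), with a 95% interval of -0.71 to 0.97 and an adjusted p of 0.998 in limma. Without wild-type library 1 it was 0.31, and without wild-type library 2 it was -0.24. BFN1 followed BRN1 with a Pearson r of 0.85 (exact permutation p = 0.0403, adjusted 0.423) and a rho of 0.43 (exact permutation p = 0.419, adjusted 0.696). Without the 2 libraries farthest from the median of BRN1, r was -0.88, so the relation rests on those libraries. BFN1 did not follow SMB, with a Pearson r of 0.08 (exact permutation p = 0.9, adjusted 0.928) and a rho of -0.31 (exact permutation p = 0.564, adjusted 0.74).

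Of the 7 genes, 0 passed the test, against 0.0727% of all genes tested, and 0 passed at an unadjusted p under 0.05 in limma or in edgeR's quasi-likelihood test. Fold changes were below 0 for 2 genes and above 0 for 5, with a median of 0.06, against a median of 0.01 over all genes tested. The groups overlapped for all 7, whereas 10.4% of tested genes had groups that did not overlap. The intervals were narrowest for SMB and widest for BFN1.

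**Figure D2:**
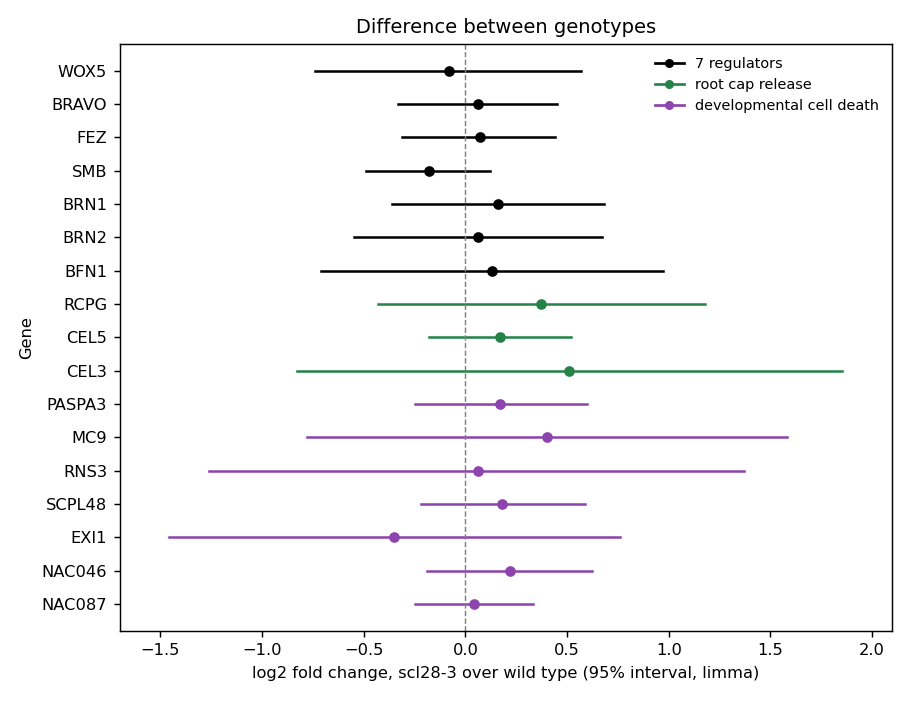
Log2 fold change of scl28-3 over wild type (horizontal axis) with its 95% interval from limma for the 7 regulators and for the tested genes of the cap release and cell death lists. Every interval includes 0, and among the 7 regulators they run from the narrowest, -0.49 to 0.12 for SMB, to the widest, -0.71 to 0.97 for BFN1.

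The spread of each gene over the 6 libraries was set beside the spread that read counting alone would give. The coefficient of variation was 35.1% for WOX5, 12.4% for BRAVO and 14.7% for FEZ, where counting alone gives 34.0%, 13.7% and 11.4%. SMB varied by 14.3%, where counting gives 6.19%, so it spread about as much as FEZ but had a smaller counting error. BRN1 varied by 24.4%, BRN2 by 30% and BFN1 by 47.0%, where counting gives 8.43%, 9.44% and 28.4%. The residual SD within genotypes, on the log2 scale, was 0.39 for BRN1, 0.47 for BRN2 and 0.60 for BFN1. It exceeded that of 93.8%, 96.7% and 98.8% of all genes tested in that order, a measure that also depends on a gene's level. For WOX5 the corresponding share was 91.9%, for FEZ 69.4%, for BRAVO 65.0% and for SMB 60.8%.

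**Figure D3:**
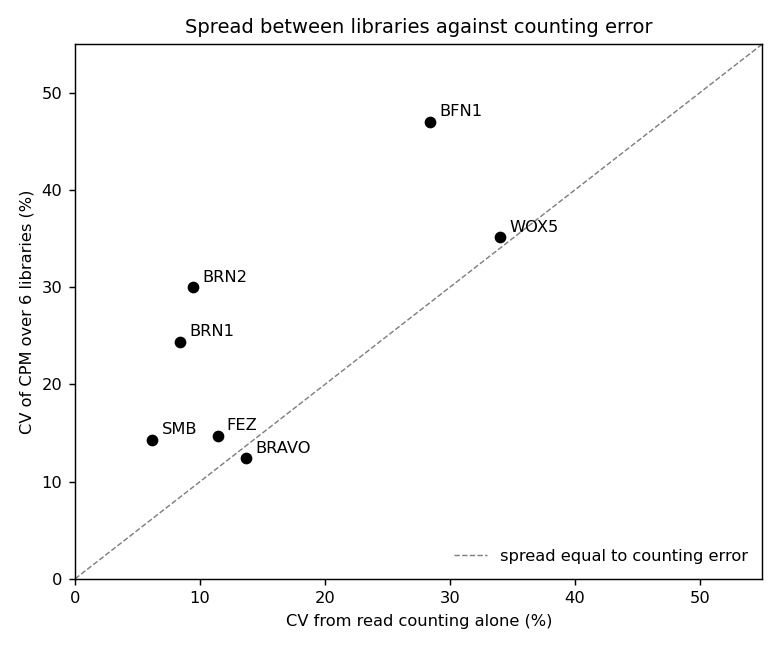
Coefficient of variation of CPM over the 6 libraries (vertical axis, percent) against the coefficient expected from read counting alone (horizontal axis, percent), a point per gene, with a dashed line where they are equal. WOX5, BRAVO and FEZ lie near the line, and SMB, BRN1, BRN2 and BFN1 lie above it.

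Levels were compared between genes per kb of annotated exon. In this unit the order over the 6 libraries was BRN1 at 10.2 ± 2.49, SMB at 9.85 ± 1.41, BRN2 at 7.06 ± 2.12, FEZ at 4.19 ± 0.616, BRAVO at 3.09 ± 0.383, BFN1 at 1.05 ± 0.496 and WOX5 at 0.73 ± 0.256 CPM per kb (SD, n = 6). The maturation factors therefore stood above the stem cell factors, and BFN1 of dying cells and WOX5 of the quiescent centre stood lowest, with BRAVO, the other quiescent centre gene, above both. In bulk tips fewer cells of a type and less RNA per cell cannot be told apart. Neighbours in the order were compared within libraries by an exact two-sided sign-flip permutation test, whose smallest possible p with 6 libraries is 0.0312. SMB over BRN2 (mean log2 ratio 0.53 ± 0.38, SD), BRN2 over FEZ (0.71 ± 0.38), FEZ over BRAVO (0.43 ± 0.26) and BRAVO over BFN1 (1.72 ± 0.96) were each higher in 6 of 6 libraries. Each of these 4 pairs had that smallest p by the exact test, or 0.0469 after adjustment over the 6 pairs. The pairs and their direction were taken from the same 6 libraries, so these p-values restate that all 6 libraries agreed. BRN1 exceeded SMB in 3 of 6 libraries (log2 ratio 0.02 ± 0.36, exact permutation p = 1, adjusted 1). BFN1 exceeded WOX5 in 5 of 6 libraries (0.44 ± 0.94, exact permutation p = 0.344, adjusted 0.412). The order of BRN1 and SMB was the reverse in wild-type libraries taken alone and with the longest transcript as the length.

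**Figure D4:**
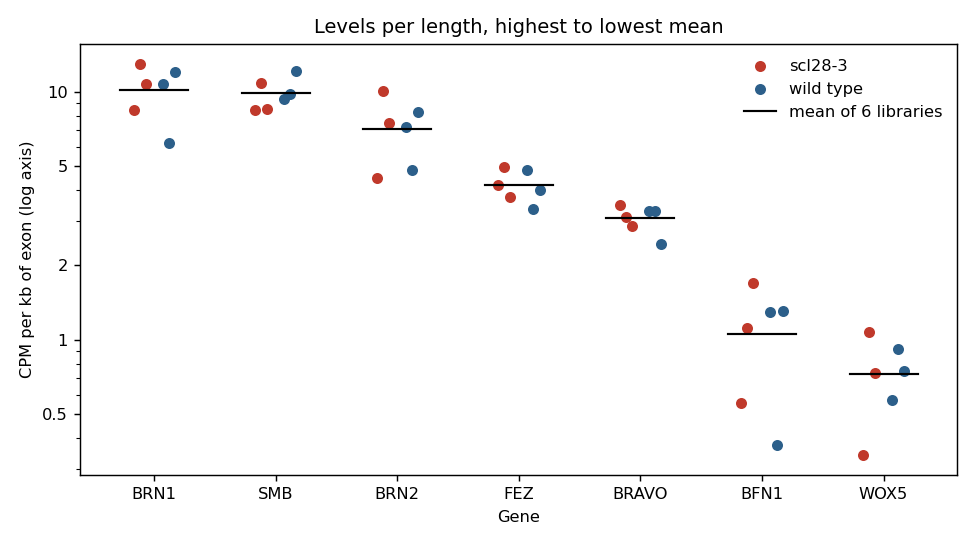
CPM per kb of annotated exon (vertical log axis) for the 7 genes in order of their mean, with scl28-3 libraries left of wild-type libraries and a line for the mean of 6 libraries. BRN1 and SMB share the top near 10 CPM per kb, and BFN1 and WOX5 overlap at the bottom.

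The 3 genes of the quiescent centre and cap stem cells were summed per kb, and so were the 3 maturation factors. The stem cell sum (WOX5, BRAVO and FEZ) was 8.07, 9.18 and 7.37 CPM per kb in the scl28-3 libraries, against 8.67, 7.58 and 7.20 CPM per kb in the wild-type libraries. The maturation sum (SMB, BRN1 and BRN2) was 21.3, 33.9 and 26.8 CPM per kb in the scl28-3 libraries, against 27.4, 20.8 and 32.4 CPM per kb in the wild-type libraries. The stem cell sum was thus the steadier quantity, and the maturation sum carried the low values of BRN1 and BRN2 in scl28-3 library 1 and wild-type library 2. SMB was lowest in scl28-3 library 1 but was not low in wild-type library 2, at 20.6 CPM against a median of 20.1 CPM over the 6 libraries. In wild-type library 2 BRN1 stood at 63.2% of SMB per kb. The ratio of maturation to stem cell sum averaged 3.33 ± 0.595 in scl28-3 and 3.47 ± 0.915 in wild type (SD, n = 3 each), a difference smaller than either SD. BFN1 per kb relative to the stem cell sum was 0.069, 0.121 and 0.229 in the scl28-3 libraries, against 0.148, 0.0497 and 0.182 in the wild-type libraries.

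Genes that release or break down cap cells followed BRN1 and BRN2. RCPG, a polygalacturonase that loosens the outer cap cells, had 9.57, 25.4 and 20.6 CPM in the scl28-3 libraries, against 16.1, 7.79 and 17.3 CPM in the wild-type libraries. CEL5, a cellulase of cap cells, had 70.2, 96.3 and 86.2 CPM in the scl28-3 libraries, against 77.2, 57.8 and 88.3 CPM in the wild-type libraries. CEL3, a related cellulase, had 2.07, 6.12 and 4.11 CPM in the scl28-3 libraries, against 5.01, 0.48 and 4.39 CPM in the wild-type libraries. Wild-type library 2 was the lowest for all 3 and scl28-3 library 1 the next lowest. None of the 3 passed the test, and their log2 fold changes were 0.37 ± 0.36 for RCPG, 0.17 ± 0.16 for CEL5 and 0.51 ± 0.60 for CEL3 (SE, adjusted p = 0.994 each in limma).

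The developmental cell death list holds hydrolases and regulators shared by dying cap and xylem cells. PASPA3, an aspartic protease, had 8.22, 12.3 and 10.01 CPM in the scl28-3 libraries, against 9.85, 6.63 and 10.3 CPM in the wild-type libraries. RNS3, a ribonuclease, had 3.79, 16.3 and 10.07 CPM in the scl28-3 libraries, against 14.3, 2.88 and 12.6 CPM in the wild-type libraries. MC9, a metacaspase, had 2.43, 7.46 and 7.33 CPM in the scl28-3 libraries, against 3.89, 1.44 and 8.51 CPM in the wild-type libraries. All 3 were low in scl28-3 library 1 and wild-type library 2. SCPL48, a carboxypeptidase, had 30.4, 43.2 and 40.6 CPM in the scl28-3 libraries, against 31.5, 25.9 and 43.0 CPM in the wild-type libraries. EXI1 had 0.29, 1.97 and 1.37 CPM in the scl28-3 libraries, against 1.90, 0.48 and 2.63 CPM in the wild-type libraries. NAC046, a NAC factor that promotes cell death in the root cap, had 4.64, 5.49 and 6.32 CPM in the scl28-3 libraries, against 3.97, 4.04 and 5.88 CPM in the wild-type libraries. NAC046 differed in that wild-type library 1 was its lowest. Its relative NAC087 ranged only from 12.9 to 15.3 CPM in scl28-3 and from 11.8 to 15.9 CPM in wild type. Too few reads were counted to test DMP4, at most 1.4 CPM, and CEP1, at most 0.14 CPM. None of the 7 tested genes of the list passed, 1 fold change was below 0 and 6 were above, and their median was 0.17, against 0.01 over all genes tested.

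Of the 10 tested genes of these lists, 10 were below their mean in both scl28-3 library 1 and wild-type library 2, and in 9 these were the 2 lowest libraries. Over all genes tested these were the 2 lowest libraries for 795, or 4.45%. The pattern was noticed in these values and its cause was not tested. As a list the xylem markers did not share it. The mean log2 deviation of the 8 tested was 0.0 in scl28-3 library 1 and 0.04 in wild-type library 2. CESA4 alone of them was lowest in wild-type library 2, at 8.46 CPM, with an r of 0.57 with BRN1 and 0.63 with BFN1. Xylem cells use several of the same hydrolases, and their part in the pattern was not tested. The summed CPM of the 9 xylem markers was 98.8, 98.7 and 126 in the scl28-3 libraries, against 79.6, 102 and 110 in the wild-type libraries, with wild-type library 1 the lowest. VND6, a regulator that defines xylem vessels, was at most 0.24 CPM. The summed CPM of the 9 endodermis markers was 328, 325 and 480 in the scl28-3 libraries, against 172, 303 and 401 in the wild-type libraries. Endodermis markers were thus lowest in wild-type library 1, where BRN1, BRN2 and BFN1 were not low. The summed CPM of the 9 root hair markers was 377, 399 and 476 in the scl28-3 libraries, against 338, 315 and 402 in the wild-type libraries. Wild-type library 2 was the lowest for root hair markers, in the sum and for 5 of the 9 genes, and wild-type library 1 was the next lowest in the sum. The part of root hair cells in the cap pattern was not tested. None of the xylem, endodermis or root hair markers passed the test, and their median log2 fold changes were 0.10, 0.43 and 0.31 in that order. At an unadjusted p under 0.05 in limma there were 0 of 8, 2 of 9 and 1 of 9 such markers, against 4.37% of all genes tested. They were MYB36 and SGN3 of the endodermis and PRP3 of root hairs, each with an adjusted p of 0.994 in limma.

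**Figure D5:**
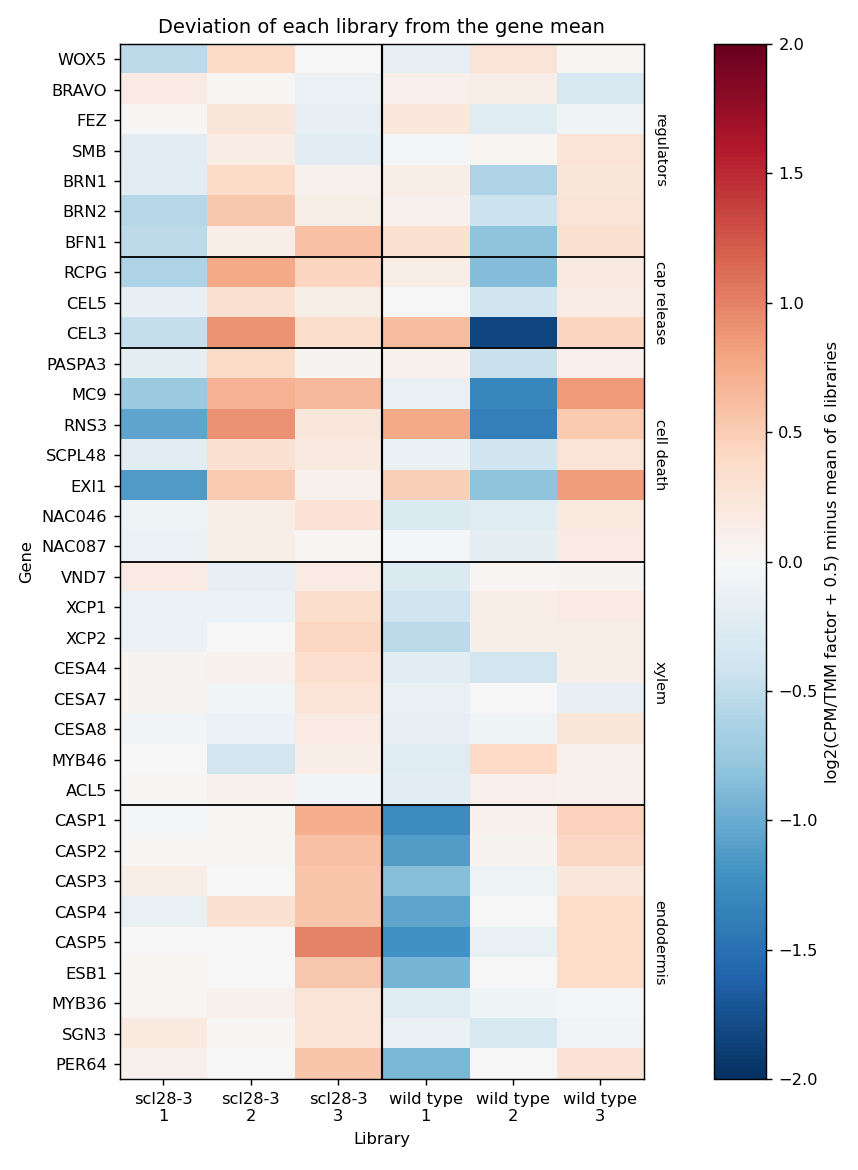
Deviation of each library (columns) from the mean of 6 libraries on the log2 scale (colour) for the regulators and the tested genes of the cap release, cell death, xylem and endodermis lists (rows). BRN1, BRN2, BFN1 and the release and death genes are blue in scl28-3 library 1 and wild-type library 2, and the endodermis genes are blue in wild-type library 1.

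Genes that act with WOX5 in the stem cell niche did not pass the test either. Of 17 niche genes 16 were tested, none passed, and fold changes were below 0 for 7 and above 0 for 9, with a median of 0.01. Their median residual SD exceeded that of 50.1% of genes tested, so they varied as much as a typical gene. The most abundant was TPL, a co-repressor that works with WOX5, at 234 ± 11.8 CPM in scl28-3 and 222 ± 19.8 CPM in wild type. Next was RGI1, a receptor of root growth peptides, at 86.3 ± 0.80 CPM in scl28-3 and 83.0 ± 10.9 CPM in wild type (SD, n = 3 each). ERF115 had too few reads to test. SHR and BES1 were higher and JKD was lower in scl28-3 with groups that did not overlap, which was also seen in 10.4% of all genes, and their adjusted p was 0.994 each in limma. These 3 genes are named after their values were seen.

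Of 7 listed regulators of the columella stem cells 6 were tested and none passed, with 1 fold change below 0, 5 above 0 and a median of 0.09, and the median residual SD exceeded that of 70.0% of genes tested. RBR1, the retinoblastoma protein that restrains division of stem cells, averaged 54.4 ± 4.04 CPM in scl28-3 and 53.7 ± 10.4 CPM in wild type. ARF10, an auxin response factor, averaged 41.6 ± 5.99 CPM in scl28-3 and 36.6 ± 1.88 CPM in wild type (SD, n = 3 each). Its groups did not overlap, as for 10.4% of genes, and its adjusted p was 0.994 in limma. CLV1, a receptor kinase of this pathway, had the smallest unadjusted p of the list and is named for that. It averaged 4.62 ± 1.07 CPM in scl28-3 and 3.30 ± 0.509 CPM in wild type (SD, n = 3 each), with a log2 fold change of 0.40 ± 0.19 (SE) and an adjusted p of 0.994 in limma. CLE40, the peptide that signals to this niche, has no value here.

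The list of columella and gravity sensing genes had the lowest median residual SD of the lists. Of 8 listed genes 7 were tested and none passed, with 4 fold changes below 0, 3 above 0 and a median of -0.03. ARG1, a gravity signalling factor, averaged 63.9 ± 3.88 CPM in scl28-3 and 63.0 ± 3.27 CPM in wild type. PIN3, an auxin exporter of columella cells, averaged 56.7 ± 1.29 CPM in scl28-3 and 59.1 ± 6.27 CPM in wild type (SD, n = 3 each). The median residual SD of the list exceeded that of 32.7% of genes tested, against 99.2% for the release list and 86.3% for the cell death list. LZY3 of the gravity list, named after its values were seen, was less steady. Its residual SD of 0.41 exceeded that of 94.8% of genes tested.

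The genes whose pattern over the 6 libraries was most like that of a regulator were ranked by Pearson r among 14036 tested genes (14035 for SMB and BRN1) of at least 5 CPM. With 6 points many genes reach a high r, and 70 genes had an r of at least 0.9 with WOX5, 69 with SMB, 55 with BFN1 and 81 with BRN1. For WOX5 they were COBL5 (r = 0.988), AT1G71865 (0.987) and LCR (0.986). For SMB they were AT5G65340 (r = 0.992), WRKY20 (0.987) and AT2G22230 (0.985). For BFN1 they were AT2G27340 (r = 0.983), AT5G15940 (0.982) and SKIP6 (0.969). BRN1 was added after its values were seen, and its nearest genes were AT1G52050 (r = 0.988), AT4G09810 (0.987) and AT1G52070 (0.987). AT1G52050 and AT1G52070 are annotated as mannose-binding lectins. AT1G52070 had 249.9, 468.8 and 400.9 CPM in the scl28-3 libraries, against 376.1, 162.9 and 390.2 CPM in the wild-type libraries. It was low in the same pair of libraries as BRN1, at a far higher level. Of the listed genes, PASPA3 ranked 5 for BRN1 and CEL5 ranked 8, each with an r of 0.98, and these are the highest ranks. The other ranked genes of the release and cell death lists ran from RNS3 at rank 19 (r = 0.95) to NAC046 at rank 940 (r = 0.58). These ranks use the same 6 libraries in which the pattern was noticed, so they are no separate test of it.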

How the data were processed

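RNA-seq was measured in 3 scl28-3 and 3 wild-type root tip libraries. The deposited values are CPM per gene. The submitters' processing notes name the TAIR10 genome, edgeR, HTSeq (0.6.1p1) and HISAT2 (2.0.0). Strand setting, annotation release and read length are not given in the sources used here. Dividing the deposited CPM by the value of 1 read gave whole reads for 100% of values (tolerance 0.1 read), from 10399899 to 16780424 reads per library. No 2 libraries agreed within sampling noise.

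Genes kept by filterByExpr (minimum count 10) numbered 17879. They were tested with limma 3.58.1 with an intensity trend on log2(CPM/TMM factor + 0.5), two-sided, with Benjamini-Hochberg adjustment over all genes and a threshold of 0.05. This scale understates the change of low genes. Alternatives were edgeR 4.0.16 (quasi-likelihood), DESeq2 1.42.0 and voom on the recovered reads, no TMM, other filters, pseudocounts of 0.1, 1 and 2, a replicate block, the endodermis list as a covariate, and each library left out. In a test on simulated data for scl28-3 over wild type (17855 genes), limma recovered 50 of 50 genes altered 4-fold, 38 of 48 altered 2-fold and 23 of 50 altered 1.5-fold. It called 165 genes, of which 4 were unaltered. The simulated counts varied independently between libraries, with the dispersion typical of each gene's level. They lack the wider spread of BRN1, BRN2 and BFN1. The recovered shares therefore do not apply to these 3 genes, nor to WOX5 with its few reads.

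Lengths and sequences came from RefSeq (TAIR10.1); 21020 of 21125 IDs matched. Coefficients of counting variation assume Poisson reads. The 7 genes and all lists were chosen with earlier results of these data known. Named genes are the 7, all release and cell death genes, the 2 most abundant and any called gene of the niche, columella stem cell and gravity lists, and the 3 genes most like WOX5, SMB and BFN1. The xylem, endodermis and root hair markers are given as sums, and those named singly were chosen after their values were seen. Intervals from reads cover counting error only.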

Additional observations from a re-analysis of the deposited data

How the results depend on the processing

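None of the 7 genes passed the threshold in any of the 18 alternative analyses, including edgeR, DESeq2 and voom on recovered reads, and WOX5 was not tested with a filter of CPM of at least 1 in 3 libraries. In 112 of 125 pairs of gene and alternative the fold change kept its sign. It turned when single libraries were left out. Without scl28-3 library 1 it was 0.16 for WOX5 and -0.02 for BRAVO. Without scl28-3 library 2 it was -0.03 for FEZ and -0.2 for BRN2, and without scl28-3 library 3 it was -0.13 for BFN1. Without wild-type library 2 it was 0.02 for WOX5, -0.04 for FEZ, -0.11 for BRN1, -0.14 for BRN2 and -0.24 for BFN1, and without wild-type library 3 it was -0.09 for BRAVO. With scl28-3 library 1 and wild-type library 2 both left out, an alternative chosen after seeing the data because these libraries were low in BRN1, BRN2 and BFN1, it was 0.27 for WOX5 and -0.03 for FEZ. Leaving out 1 library gave at most 0.14 for BRAVO, 0.19 for FEZ and 0.31 for BRN1. Ranges over all alternatives were -0.3 to 0.27 for WOX5, -0.3 to -0.09 for SMB, -0.2 to 0.35 for BRN2 and -0.24 to 0.42 for BFN1.

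Over all genes, 13 were lower and 0 higher in scl28-3. Leaving out single libraries gave between 5 and 18 lower genes and 0 higher, and leaving out the pair above gave 3 lower. The endodermis list as a covariate gave 24 lower and 3 higher genes. The replicate block gave 40 lower and 24 higher genes and called none of the 7 regulators (smallest adjusted p 0.607 in limma). The labels do not say whether the numbers pair the samples, and the main test did not pair them. Deviations of same-numbered libraries from their genotype mean had an r of 0.44, 0.04 and 0.5 for numbers 1, 2 and 3, so number 2 showed no joint deviation. Between libraries of different number, r ran from -0.46 to 0.06. The deviations are from a mean of 3 libraries, so these r values depend on each other. Whether the numbers mark a shared batch was not tested, nor was the cause of the larger counts.

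All 4 neighbouring pairs that passed in the order of levels passed also with the longest transcript as length. With any library left out 0 pairs passed, since 5 libraries allow no exact p under 0.0625. The log2 ratio of BRN1 over SMB was -0.12 with the longest transcript and -0.03, -0.04 and -0.02 without scl28-3 library 2, scl28-3 library 3 and wild-type library 1. Depth limits WOX5 and BFN1 most, which rest on at most 16 and 36 reads per library.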
